A study of Homo sapiens with 8 samples.

Results

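This account concerns 10 genes of the early transcriptional response to growth signals: the FOS family members FOS, FOSB, FOSL1 and FOSL2, the JUN family members JUN, JUNB and JUND, and the immediate early genes EGR1, IER2 and IER3. They were chosen by symbol from a table of 38148 genes, all 10 were found, and all 10 were among the 14219 genes that passed a filter of an average of at least 1 RPM, the reads of a gene per 1000000 reads on genes of its library. The mRNA came from HT29, an established human colorectal cancer cell line with mutant BRAF, left untreated or given 1 µM selumetinib for 24 h, fixed with glyoxal, stained for the G2 protein cyclin B1 (CCNB1) and sorted by flow cytometry. Both sorted fractions, CCNB1-negative and CCNB1-positive, were sequenced with and without the drug, which gives 4 groups of 2 libraries that share the line, the fixation and the staining. Selumetinib blocks MEK and with it the activation of ERK.

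FOS and JUN proteins are basic leucine zipper factors that pair to form AP-1, which binds DNA at AP-1 sites, and JUN proteins can also pair with each other while FOS proteins need a partner. Most of these genes are switched on within minutes of a growth signal, without new protein synthesis. ERK feeds this switch through ETS factors such as ELK1, which sit beside serum response factor (SRF) on CArG boxes, while the stress kinases JNK and p38 and cyclic AMP signalling reach some of the same promoters. FOSL1 is known as a later, ERK-dependent member, whose protein is also stabilised by ERK.

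The deposited sample labels conflict. The titles of all 8 libraries name the other treatment and the other fraction than their short descriptions do, and the growth medium label sides with the titles on treatment. Groups here follow the descriptions, which match the column names of the table. Had the titles been followed, each drug response below would belong to the other fraction with its sign reversed, each fraction difference would belong to the other treatment with its sign reversed, and the test of the difference between responses would be unaltered. As a measured check, CCNB1 mRNA was higher in the CCNB1-positive than in the CCNB1-negative libraries by 2.09 on the log2 scale in untreated cells (adjusted p = 3.3e-05) and by 5.08 in treated cells (adjusted p = 5.4e-10). The ERK targets DUSP6, SPRY4, ETV4 and ETV5 were lower in treated cells, by −1.75, −1.13, −3.10 and −2.95 on the log2 scale in CCNB1-negative cells and by −1.06, −1.20, −2.34 and −2.02 in CCNB1-positive cells. SPRED2, from the same list of 8 ERK-responsive genes, went the other way in CCNB1-negative cells (0.72, adjusted p = 0.0058, but 0.39 and adjusted p = 0.091 without treated CCNB1-negative replicate 2), and the other 7 were lower in both fractions.

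Reads on genes numbered 12696860 to 23916160 per library, and 292 to 9693 reads fell on each of the 10 genes in each library. Mitochondrial genes took 11.9% to 14.8% of reads in treated and 4.44% to 7.80% in untreated libraries, and the nuclear RNA MALAT1 2.01% to 4.42% against 0.303% to 0.386%, so values scaled to the total carry that difference. All 9 colon epithelial markers on the list passed the filter. In sum, the 5 fibroblast markers reached 1.10 to 8.01 RPM. COL1A2, COL3A1 and DCN were each under 0.3 RPM, LUM reached 2.55 RPM and COL1A1 reached 5.36 RPM. COL1A1 passed the filter and rose with selumetinib by limma. Its log2 change was 1.81 (adjusted p = 0.0043) for the CCNB1-negative fraction, against 2.19 (adjusted p = 0.0015) for the other fraction. With quantile scaling 0 fibroblast markers were called. Of 6 blood markers PTPRC, CD3E and HBB stayed under 0.8 RPM and CD14 reached 2.5 RPM, while LYZ stood at 343 to 1080 RPM. No label ties replicates to separate cultures, so p-values measure the spread between these libraries. In sorted bulk cells, fewer cells expressing a gene and less RNA per cell cannot be told apart.

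Promoter sequence was available for 8 of the 10 genes, as annotated by RefSeq on GRCh38 (FOSL1 and IER3 had no entry), and the 500 bases before each start site were read on both strands. The CArG box, the SRF site, is a CC and a GG around 6 bases that are each A or T. FOS held 1, FOSB held 1 and EGR1 held 5, against 2.43% of 35116 promoters with any. The cyclic AMP response element, TGACGTCA, occurred once each in FOSB and JUND, against 1.98% of promoters. The ETS site, CCGGAAG, occurred once each in EGR1 and IER2, against 11.2% of promoters. Only this exact string was searched, so ETS sites with other letters, also beside a CArG box, were not counted. The AP-1 site, TGANTCA, stood in 11.9% of all promoters and the EGR1 site, GCGTGGGCG, in 1.07%, and neither was in these 8. No match of any of the 5 motifs lay in the windows of FOSL2, JUN and JUNB. The stretches below are those that carried a match, shown because ERK is known to reach early genes through CArG boxes and ETS sites and cyclic AMP through its own element. They are printed 5′ to 3′ on the gene's strand, with the matched letters in capitals.
FOS, CArG box, chr14:75278494-75278543, plus strand: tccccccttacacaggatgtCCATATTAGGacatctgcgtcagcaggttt
FOSB, cyclic AMP response element then CArG box, chr19:45467656-45467746, plus strand: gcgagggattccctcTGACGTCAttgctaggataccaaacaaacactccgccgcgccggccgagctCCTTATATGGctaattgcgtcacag
EGR1, 3 CArG boxes then ETS site on the opposite strand, chr5:138465046-138465169, plus strand: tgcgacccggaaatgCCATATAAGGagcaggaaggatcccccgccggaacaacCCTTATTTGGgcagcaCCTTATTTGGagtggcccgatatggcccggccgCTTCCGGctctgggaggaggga
EGR1, 2 CArG boxes nearer the start, chr5:138465359-138465420, plus strand: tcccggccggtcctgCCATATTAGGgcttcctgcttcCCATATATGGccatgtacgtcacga
JUND, cyclic AMP response element, chr19:18281795-18281842, minus strand: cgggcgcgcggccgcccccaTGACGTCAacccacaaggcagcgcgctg
IER2, ETS site on the opposite strand, chr19:13150364-13150410, plus strand: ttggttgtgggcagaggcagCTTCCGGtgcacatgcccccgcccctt
The motifs begin 314 bases before the start site in FOS, 325 and 274 bases before it in FOSB, 200 bases before it in JUND and 27 bases before it in IER2. In EGR1 the CArG boxes begin 418, 380, 364, 105 and 83 bases before the start and the ETS site 331 bases before it. A match of letters describes the sequence and does not show that a factor was bound.

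The question put to these genes was how they respond to MEK inhibition in each sorted fraction. In CCNB1-negative cells 6 of the 10 were higher and 2 lower after selumetinib by limma at an adjusted p under 0.05, and 2 did not pass. Over all genes tested 38.2% were called higher and 35.8% lower in that comparison. In CCNB1-positive cells 8 were higher and 2 lower, against 38.0% and 27.3% of all genes. FOSL1 and IER3 were the 2 that fell, in both fractions, and FOS, FOSB, FOSL2, JUN, JUND and EGR1 rose in both, where 33.3% of all genes were called higher in both fractions and 26.0% lower in both. The median log2 fold change of the 10 was 0.46 in the CCNB1-negative fraction and 1.03 in the CCNB1-positive one, beside medians of 0.05 and 0.17 over all genes tested. How many of the smaller rises passed depended on scaling: with median-ratio scaling in place of the total read count the counts were 2 higher and 2 lower in the CCNB1-negative and 6 higher and 2 lower in the CCNB1-positive fraction, and over all genes the share of calls that were higher went from 58.1% to 40.9% in CCNB1-positive cells. With quantile scaling 8 were higher and 2 lower in each fraction. Over all genes tested, median-ratio scaling called 4580 higher and 6103 lower in CCNB1-negative cells, and 3923 and 5663 in CCNB1-positive cells. Quantile scaling called 4914 higher and 5445 lower in CCNB1-negative cells, and 3978 and 4392 in CCNB1-positive cells. In CCNB1-negative cells the 2 treated libraries lay above both untreated ones for 6 of the 10 genes and below them for 2, against 44.6% and 41.9% of all genes, and in CCNB1-positive cells for 8 and 2, against 48.6% and 37.1%. Median-ratio scaling moved the median of all genes to −0.21 and −0.18, a shift that every gene shares. The median of the 10 stood 0.41 and 0.86 above the median of all genes on the deposited scale and 0.76 and 1.29 above it with quantile scaling.

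**Figure D1:**
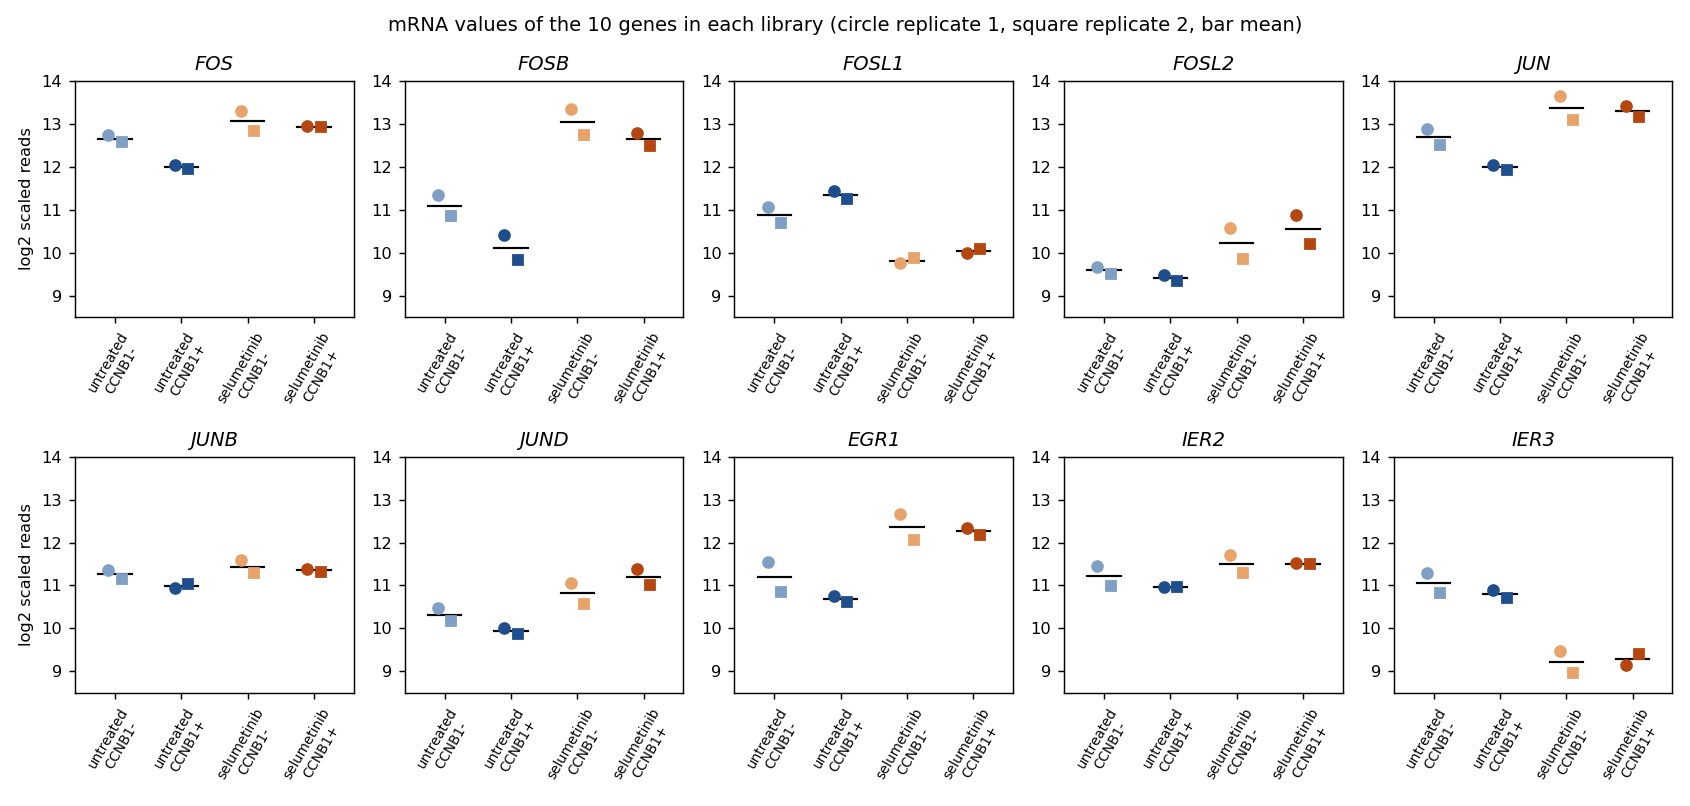
Log2 scaled reads (y axis) of each of the 10 genes in the 8 libraries, by group (x axis), with circles for replicate 1, squares for replicate 2 and bars for the mean of the 2. FOS, FOSB, FOSL2, JUN, JUND and EGR1 stood higher and FOSL1 and IER3 lower in all 4 selumetinib libraries than in all 4 untreated ones.

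FOSB was the member with the largest rise. It encodes a FOS protein whose shortened form is long lived, and lies on chromosome 19 of GRCh38, 45467995 to 45475179 (ENSG00000125740). It was measured at 109 and 76.8 RPM in untreated CCNB1-negative, 56.6 and 37.4 RPM in untreated CCNB1-positive, 475 and 318 RPM in treated CCNB1-negative and 315 and 260 RPM in treated CCNB1-positive libraries. All 4 treated libraries lay above all 4 untreated ones. The rise was 3.86-fold in CCNB1-negative cells (log2 1.95, SE 0.24, adjusted p = 4.9e-06) and 5.79-fold in CCNB1-positive cells (log2 2.53, SE 0.24, adjusted p = 1.3e-06). ERCC1, on the opposite strand, overlaps FOSB, and since how strand was used in counting is not given in the sources used here, the assignment of its reads is uncertain.

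FOSL1, which encodes FRA-1, moved against the rest of its family (ENSG00000175592, chromosome 11, 65892049 to 65900573). It was measured at 90.2 and 68.7 RPM in untreated CCNB1-negative and at 116 and 99.9 RPM in untreated CCNB1-positive libraries, and at 39.3 and 43.7 RPM and 45.7 and 48.8 RPM in the corresponding treated libraries. Every treated library was below every untreated one. The fall was 2.09-fold in CCNB1-negative cells (log2 −1.06, SE 0.16, adjusted p = 3.4e-05) and 2.45-fold in CCNB1-positive cells (log2 −1.29, SE 0.16, adjusted p = 1.2e-05).

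FOS itself, the founding member (ENSG00000170345, chromosome 14, 75278826 to 75282230), rose less than FOSB. Its values were 287 and 254 RPM in untreated CCNB1-negative, 177 and 165 RPM in untreated CCNB1-positive, 461 and 341 RPM in treated CCNB1-negative and 351 and 349 RPM in treated CCNB1-positive libraries. The treated and untreated libraries did not overlap in either fraction. The change was 1.33-fold in CCNB1-negative cells (log2 0.41, SE 0.17, adjusted p = 0.04) and 1.90-fold in CCNB1-positive cells (log2 0.93, SE 0.17, adjusted p = 3.2e-04). In CCNB1-negative cells the call was lost when any 1 of 7 libraries was left out, with adjusted p between 0.052 and 0.31, and remained only without treated CCNB1-negative replicate 2. The lowest value, 0.18, came without treated CCNB1-negative replicate 1.

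FOSL2 encodes FRA-2 (ENSG00000075426, chromosome 2, 28392448 to 28417317) and had the lowest level per kilobase of the 10. It was measured at 34.2 and 30.3 RPM in untreated CCNB1-negative, 29.8 and 27.0 RPM in untreated CCNB1-positive, 69.9 and 43.1 RPM in treated CCNB1-negative and 83.4 and 53.4 RPM in treated CCNB1-positive libraries. The groups did not overlap, though the treated replicates lay far apart. The rise was 1.55-fold in CCNB1-negative cells (log2 0.63, SE 0.24, adjusted p = 0.026) and 2.19-fold in CCNB1-positive cells (log2 1.13, SE 0.24, adjusted p = 8.8e-04). In CCNB1-negative cells it was 0.27 on the log2 scale without treated replicate 1 of that fraction (adjusted p = 0.33) and 0.55 without untreated replicate 2 (adjusted p = 0.11). The antisense FOSL2-AS1 and a second long noncoding RNA overlap it.

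Taken as shares of the family's reads per kilobase of annotated exon within each library, which no scaling between libraries affects, the FOS family changed its make-up. FOSL1 made up 29.4% and 27.2% of FOS family reads in untreated CCNB1-negative and 46.7% and 46.0% in untreated CCNB1-positive libraries, and 7.99% to 13.6% in the 4 treated libraries. FOSB went from 5.84% to 12.1% in the 4 untreated libraries to 24.7% to 32.8% in the treated ones. FOS held 42.4% to 59.4% of the family without the drug and 54.4% to 57.7% with it, so these ranges overlapped. FOSL2 never exceeded 5.74%. In 6 of the 8 libraries FOS was the member with the highest level per kilobase, and FOSL1 held that place in both untreated CCNB1-positive libraries. The sizes of the shares, and so this order, depend on the exon lengths used.

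**Figure D2:**
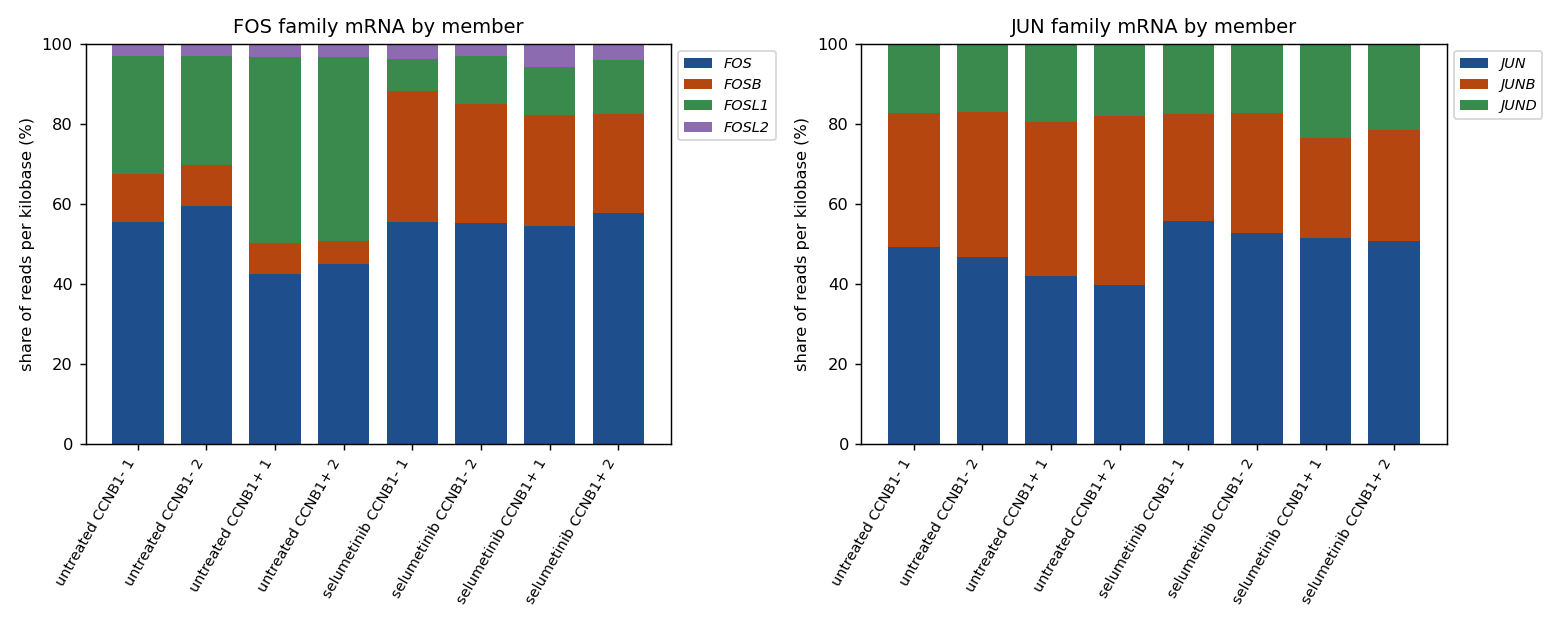
Share of reads per kilobase (y axis, %) held by each FOS family gene (left) and JUN family gene (right) in each of the 8 libraries (x axis). The FOSL1 part fell from 27.2% or more in untreated libraries to 13.6% or less in treated ones, while the FOSB part was at most 12.1% without and at least 24.7% with selumetinib.

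Among the JUN genes, JUN, the main partner of FOS proteins and the target of JNK, rose (ENSG00000177606, chromosome 1, 58780788 to 58784327). It was measured at 318 and 245 RPM in untreated CCNB1-negative, 176 and 162 RPM in untreated CCNB1-positive, 580 and 407 RPM in treated CCNB1-negative and 485 and 413 RPM in treated CCNB1-positive libraries. The 4 treated libraries were the highest. The change was 1.58-fold in CCNB1-negative cells (log2 0.66, SE 0.20, adjusted p = 0.0075) and 2.47-fold in CCNB1-positive cells (log2 1.30, SE 0.20, adjusted p = 6.5e-05). The first call was lost without treated CCNB1-negative replicate 1 (log2 0.39, adjusted p = 0.086) or untreated CCNB1-negative replicate 2 (log2 0.48, adjusted p = 0.083). A long noncoding RNA on the same strand overlaps JUN in GENCODE 44.

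JUND, the JUN gene that quiescent cells also express (ENSG00000130522, chromosome 19, 18279760 to 18281622), rose with JUN. Its values were 59.7 and 47.8 RPM in untreated CCNB1-negative, 43.2 and 38.8 RPM in untreated CCNB1-positive, 97.4 and 70.6 RPM in treated CCNB1-negative and 119 and 92.5 RPM in treated CCNB1-positive libraries. No treated library was as low as an untreated one. The rise was 1.41-fold in CCNB1-negative cells (log2 0.50, SE 0.19, adjusted p = 0.029) and 2.39-fold in CCNB1-positive cells (log2 1.25, SE 0.19, adjusted p = 6.6e-05). In CCNB1-negative cells it was 0.25 without treated replicate 1 (adjusted p = 0.27) and 0.35 without untreated replicate 2 (adjusted p = 0.20).

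JUNB, often an antagonist of JUN in proliferation (ENSG00000171223, chromosome 19, 12791486 to 12793315), changed least. It was measured at 110 and 95.3 RPM in untreated CCNB1-negative, 81.5 and 87.3 RPM in untreated CCNB1-positive, 140 and 117 RPM in treated CCNB1-negative and 119 and 115 RPM in treated CCNB1-positive libraries. The CCNB1-negative values were 1.14-fold apart and did not pass (log2 0.19, SE 0.15, 95% interval −0.14 to 0.51, adjusted p = 0.28), and the sign turned with median-ratio scaling (−0.07). In CCNB1-positive cells the rise was 1.29-fold (log2 0.37, SE 0.15, adjusted p = 0.044), and the call was lost without any 1 of 6 libraries, with values of 0.31 to 0.42 and adjusted p between 0.051 and 0.21. Of the omissions of 1 library, it remained only without either treated CCNB1-negative replicate. With median-ratio scaling the value in CCNB1-positive cells was 0.02 (adjusted p = 0.90), and without the filter the adjusted p was 0.075. HOOK2 overlaps JUNB on the opposite strand.

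Within the JUN family, JUN held 39.7% to 49.2% of reads per kilobase in untreated and 50.7% to 55.7% in treated libraries. JUNB went from 33.5% to 42.4% down to 25.0% to 30.0%, and neither range overlapped. JUND held 17.2% to 19.4% without the drug, 17.6% and 17.2% in treated CCNB1-negative and 23.7% and 21.3% in treated CCNB1-positive libraries.

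EGR1 is a zinc finger factor and a standard readout of ERK signalling (ENSG00000120738, chromosome 5, 138465479 to 138469303). It was higher after the MEK inhibitor. Its values were 126 and 76.3 RPM in untreated CCNB1-negative, 72.0 and 64.9 RPM in untreated CCNB1-positive, 295 and 200 RPM in treated CCNB1-negative and 232 and 209 RPM in treated CCNB1-positive libraries. All 4 treated libraries exceeded all 4 untreated ones. The rise was 2.25-fold in CCNB1-negative cells (log2 1.17, SE 0.22, adjusted p = 3.2e-04) and 2.99-fold in CCNB1-positive cells (log2 1.58, SE 0.22, adjusted p = 4.0e-05).

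IER3, an early response gene linked to cell survival (ENSG00000137331, chromosome 6, 30743199 to 30744548), had the deepest fall of the 10. It was measured at 106 and 75.8 RPM in untreated CCNB1-negative, 79.9 and 69.6 RPM in untreated CCNB1-positive, 32.2 and 23.0 RPM in treated CCNB1-negative and 25.2 and 30.5 RPM in treated CCNB1-positive libraries. The treated libraries were all below the untreated ones. The fall was 3.62-fold in CCNB1-negative cells (log2 −1.86, SE 0.20, adjusted p = 1.6e-06) and 2.89-fold in CCNB1-positive cells (log2 −1.53, SE 0.20, adjusted p = 1.9e-05). IER3-AS1 and HCG20 overlap it on the other strand.

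IER2, a small nuclear early response protein (ENSG00000160888, chromosome 19, 13150411 to 13154911), behaved like JUNB. Its values were 117 and 84.1 RPM in untreated CCNB1-negative, 83.8 and 83.3 RPM in untreated CCNB1-positive, 154 and 117 RPM in treated CCNB1-negative and 131 and 129 RPM in treated CCNB1-positive libraries. In CCNB1-negative cells the groups overlapped and the change did not pass (log2 0.30, SE 0.18, 95% interval −0.09 to 0.68, adjusted p = 0.15), though it passed without untreated replicate 1 (0.53, adjusted p = 0.029) or treated replicate 2 (0.51, adjusted p = 0.031) of that fraction. In CCNB1-positive cells it was 1.45-fold higher (log2 0.53, SE 0.18, adjusted p = 0.017), and the call was lost without any 1 of the 4 CCNB1-positive libraries (0.52 to 0.55, adjusted p between 0.057 and 0.07) and with median-ratio scaling (0.19, adjusted p = 0.36). A pair of long noncoding RNAs on the opposite strand overlaps IER2.

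**Figure D3:**
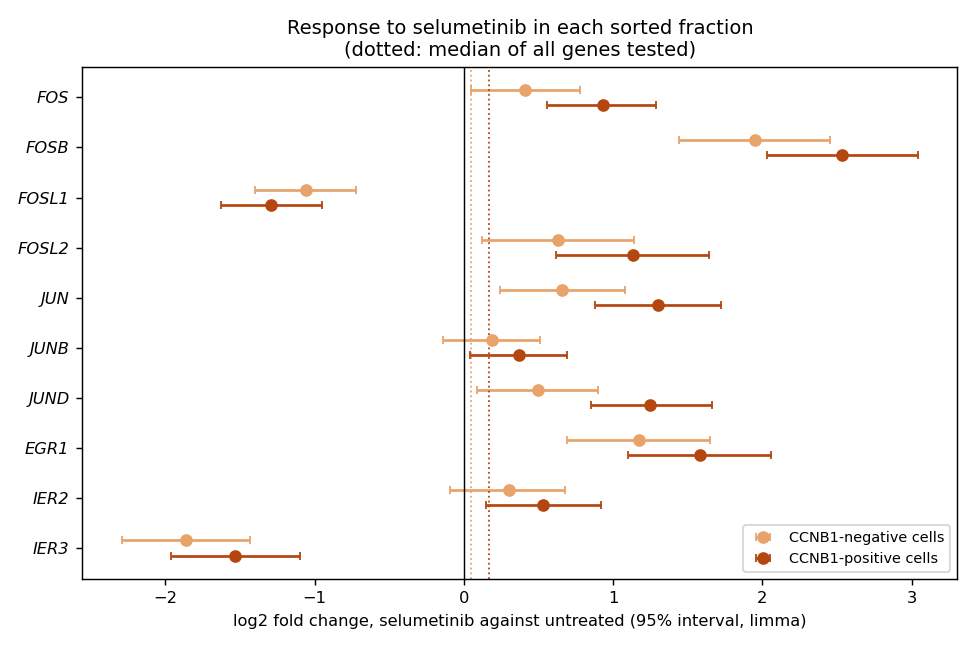
Log2 fold change of selumetinib-treated against untreated cells (x axis) for each of the 10 genes (y axis), with points for the limma estimate and bars for its 95% interval in CCNB1-negative (light) and CCNB1-positive (dark) cells. FOSL1 (−1.06 and −1.29) and IER3 (−1.86 and −1.53) lie left of 0, and FOSB (1.95 and 2.53) lies farthest right.

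The rises of FOSB and EGR1 and the falls of FOSL1 and IER3 passed in each of 18 alternatives in both fractions, these being other filters, scalings, tests and blocks and the omission of each library. Their log2 values ranged from 1.64 to 2.83 for FOSB, 0.81 to 1.82 for EGR1, −1.63 to −0.88 for FOSL1 and −2.11 to −1.38 for IER3. The rises of FOS, FOSL2, JUN and JUND passed in all 18 in CCNB1-positive cells, and in 8, 14, 15 and 14 of them in CCNB1-negative cells. JUNB passed in 10 and IER2 in 13 of 18 in CCNB1-positive cells, and in 2 and 6 in CCNB1-negative cells.

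**Figure D4:**
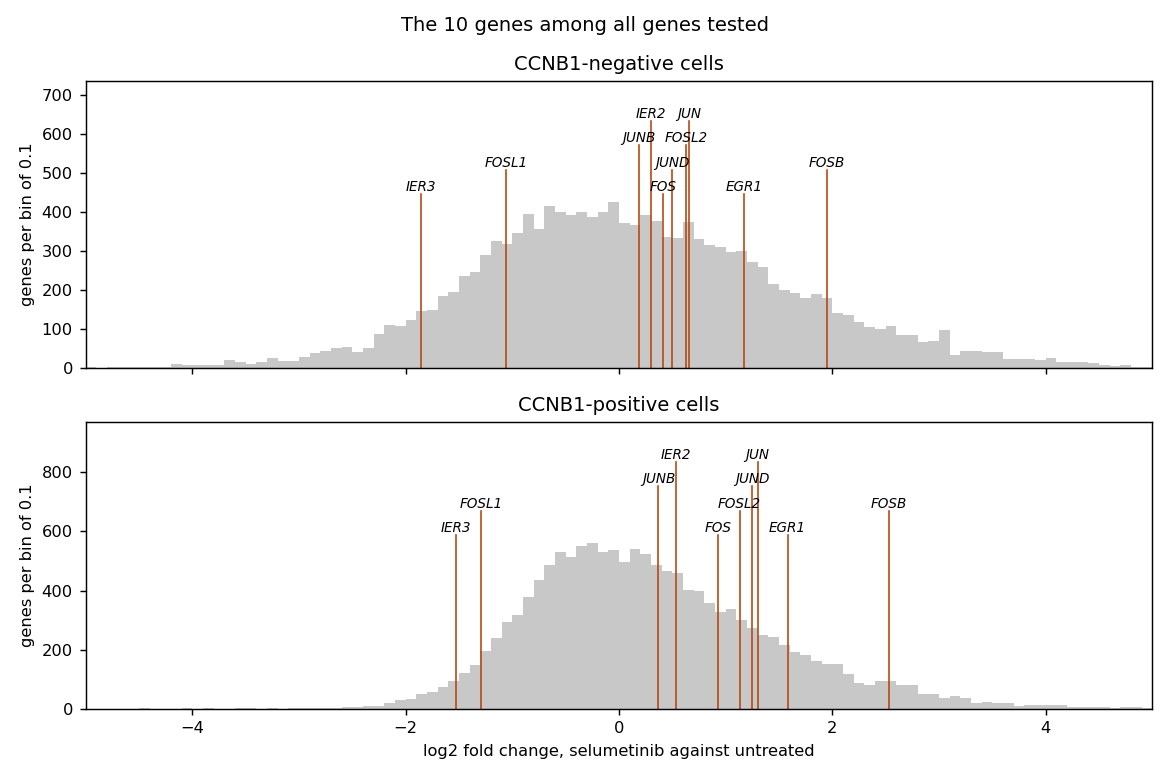
Number of genes (y axis, bins of 0.1) at each log2 fold change of treated against untreated cells (x axis) for the 14219 genes tested, with the 10 genes drawn as lines, in CCNB1-negative (top) and CCNB1-positive (bottom) cells. FOSL1 and IER3 lie on the left side of both distributions, and the other 8 genes lie right of 0.

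Without the drug, the genes were lower in the CCNB1-positive fraction for the most part. Of the 10, 8 had both CCNB1-positive libraries below both CCNB1-negative ones, against 28.0% of all genes, FOSL1 had both above, against 16.3%, and IER3 overlapped. Only FOSB passed, in a comparison in which 1.36% of all genes were called higher and 1.51% lower. FOSB was 1.98-fold lower in CCNB1-positive cells (log2 −0.99, SE 0.24, adjusted p = 0.037). The call was lost without untreated CCNB1-negative replicate 1 (−0.74, adjusted p = 0.25) or untreated CCNB1-positive replicate 2 (−0.69, adjusted p = 0.38). JUN (−0.72, adjusted p = 0.074) and FOS (−0.65, adjusted p = 0.06) did not pass, and both passed when either treated CCNB1-negative replicate was left out (JUN adjusted p = 0.032 and 0.033, FOS adjusted p = 0.018 each time). FOS also passed with limma-voom (adjusted p = 0.044) and with only the 2 groups compared (0.037). The FOSB call was lost in the latter fit (0.087) and with quantile scaling (0.094). With a replicate block FOS and JUN passed (0.03 and 0.017). With a block by treatment and number FOS (5.4e-04), JUN (1.7e-04), FOSL1 (0.0041), EGR1 (0.011) and JUND (0.014) passed. The latter block called 675 of the 14219 genes tested higher and 1248 lower. Replicate numbers were not established as pairing the samples. Without blocks FOSL1 was 0.45 higher on the log2 scale (SE 0.16, 95% interval 0.11 to 0.79, adjusted p = 0.18). The median of the 10 was −0.32, beside −0.06 over all genes.

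Under selumetinib the estimated differences between the fractions were at most 0.40 on the log2 scale in either direction. By limma 0 of the 10 genes passed between the CCNB1-positive and CCNB1-negative fractions of treated cells, 0 did so at an unadjusted p under 0.05, and 0 by limma-voom on the recovered reads, against 21.6% of all genes called in either direction. The widest differences were FOSB at −0.40 (95% interval −0.91 to 0.10) and JUND at 0.38 (−0.03 to 0.79), and the other intervals all included 0. With a block by treatment and replicate number, FOSB (adjusted p = 0.003), JUND (0.0038) and FOSL2 (0.013) passed in limma. That block called 3845 of the 14219 genes tested higher and 2826 lower. FOSB also passed with the plain replicate block (adjusted p = 0.042). The values of 9 genes overlapped between the fractions, and FOSL1 alone was higher in both CCNB1-positive libraries (33.0% of all genes were higher and 31.0% lower without overlap), by 0.23 (−0.11 to 0.57, adjusted p = 0.32). Without treated CCNB1-negative replicate 1, JUND (0.63, adjusted p = 0.034) and FOSL2 (0.69, adjusted p = 0.049) passed.

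The response itself was also compared between fractions. By limma 0 of the 10 interactions passed, 2 (JUN and JUND) were at an unadjusted p under 0.05, and limma-voom called 0, while 5.33% of all genes were called. With a block by treatment and replicate number, JUND (adjusted p = 6.2e-04), JUN (0.0047), FOSB (0.0053), FOSL2 (0.015) and FOS (0.019) passed. Of the 14219 genes tested, that block called 2739 higher and 1111 lower. JUND also passed with the plain replicate block (adjusted p = 0.035), but replicate numbers were not established as pairing the samples. Without blocks, the response in CCNB1-positive cells exceeded that in CCNB1-negative cells on the log2 scale by 0.76 for JUND (SE 0.27, 95% interval 0.18 to 1.33, adjusted p = 0.13) and by 0.64 for JUN (SE 0.28, 95% interval 0.04 to 1.24, adjusted p = 0.21). Leaving out treated CCNB1-negative replicate 1 brought JUND (1.00, adjusted p = 0.029), JUN (0.91, adjusted p = 0.038) and FOS (0.75, adjusted p = 0.038) past the threshold. The estimate was positive for 9 of the 10 genes and negative for FOSL1 (−0.23). Their median was 0.46, beside 0.11 over all genes tested, of which 709 were called higher and 49 lower without blocks. JUNB (0.18) and IER2 (0.24) lay near the median of all genes. The 2 responses were measured on separate libraries, but these are not shown to be independent. Deviations of same-number libraries correlated between fractions at 0.715 in untreated and 0.561 in treated cells. In both fractions FOSB, EGR1, FOSL1 and IER3 moved by more than 1 on the log2 scale.

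Expressed per kilobase of exon, so that genes can be ranked, the order of the 10 differed between groups. The length used was that of all annotated exons merged, 3186 bases for FOS and 3624 for JUN. For JUN and JUND the annotated bounds differ from those counted. Other lengths could change the order between genes, and which transcripts were present was not tested. In untreated CCNB1-negative cells FOS was first with 84.9 ± 7.38 (SD, n = 2) RPM per kilobase, followed by JUN (77.6), IER3 (67.2) and JUNB (56.0), and neighbours among these 4 were not apart in their libraries. In untreated CCNB1-positive cells FOSL1 was first with 57.1 ± 5.89 (SD, n = 2), not apart from IER3 (55.3), which was not apart from FOS (53.7). With selumetinib JUN led, with 136 ± 33.8 (SD, n = 2) in CCNB1-negative and 124 ± 14 (SD, n = 2) in CCNB1-positive cells, and FOS was next with 126 and 110, apart from JUN only in the CCNB1-positive fraction. EGR1 was the seventh gene in both untreated groups, not apart from JUND in either nor from IER2 in CCNB1-negative cells, and the third in both treated groups, not apart from FOSB in the CCNB1-negative fraction. FOSL1 and IER3 took ranks 8 and 9 in both treated groups, apart from each other only in CCNB1-positive cells. FOSL2 was last in every group, at 3.97 to 9.56, and was apart from its neighbour each time.

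The members also differed in how closely they followed each other over the 8 libraries, measured as the root mean square difference of log2 values after centring each gene. The closest pairs were JUNB with IER2 (0.11), FOSL2 with JUND (0.12) and FOS with JUN (0.18). FOSB was farthest from IER3 (2.0) and FOSL1 (1.81). FOS, FOSB, FOSL2, JUN, JUND, EGR1 and IER2 read higher in replicate 1 than in replicate 2 in each of the 4 groups. For IER2 the gap was small in untreated CCNB1-positive cells (83.8 and 83.3 RPM). Of 11992 genes with a symbol, the nearest to FOSB was NR4A1 (0.111), an orphan nuclear receptor and itself an immediate early gene, and then STAT5A (0.149). For JUN these were G0S2 (0.096) and ZFP36 (0.14), the latter a destabiliser of short-lived mRNAs, and for IER3 DUSP2 (0.173), an ERK phosphatase, and ST3GAL4 (0.176). NR0B2 (0.097) and GABPB1-IT1 (0.111) were nearest to FOS, MTSS2 (0.121) and URB1 (0.123) to FOSL1, NEU1 (0.087) and IRF5 (0.093) to FOSL2, and GBP2 (0.148) and B3GALT5 (0.163) to EGR1. PDPK1 and CFAP45 (0.072 each) were nearest to JUNB, HS1BP3 (0.089) and HELZ2 (0.096) to JUND, and CD82 (0.084) and TNFSF13 (0.092) to IER2. All of these distances share the same 8 libraries and the same treatment contrast.

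Of 27 further immediate early genes, 24 passed the filter, and after selumetinib 14 were higher and 4 lower in CCNB1-negative cells and 16 were higher and 4 lower in the CCNB1-positive fraction. Over all genes, 38.2% were higher and 35.8% lower in the first comparison and 38.0% and 27.3% in the second, and these shares also stand beside the lists that follow. The median of the 24 was 0.82 and 1.25 on the log2 scale. The largest rises were BTG2, an antiproliferative gene (2.95 and 3.06 in CCNB1-negative and CCNB1-positive cells), KLF2 in CCNB1-negative cells (2.41) and DUSP1, a phosphatase of JNK, p38 and ERK, in CCNB1-positive cells (2.72). NR4A1 rose by 2.05 and 2.63. Those that fell most were IER5 (−1.19) and CSRNP1 (−0.94) in CCNB1-negative cells and the survival gene MCL1 (−0.55) and IER5 (−0.46) in CCNB1-positive cells. The falls of CSRNP1 (−0.87 and −0.94 without untreated or treated CCNB1-negative replicate 2) and MCL1 (−0.53 and −0.42 without untreated or treated CCNB1-positive replicate 2) then no longer passed. IER5 in CCNB1-positive cells was just past the threshold and lost its call without either untreated CCNB1-negative replicate or any CCNB1-positive library (−0.58 to −0.34, adjusted p between 0.053 and 0.25). EGR3, EGR4 and NR4A3 did not pass the filter, at no more than 0.683 RPM in any library.

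**Figure D5:**
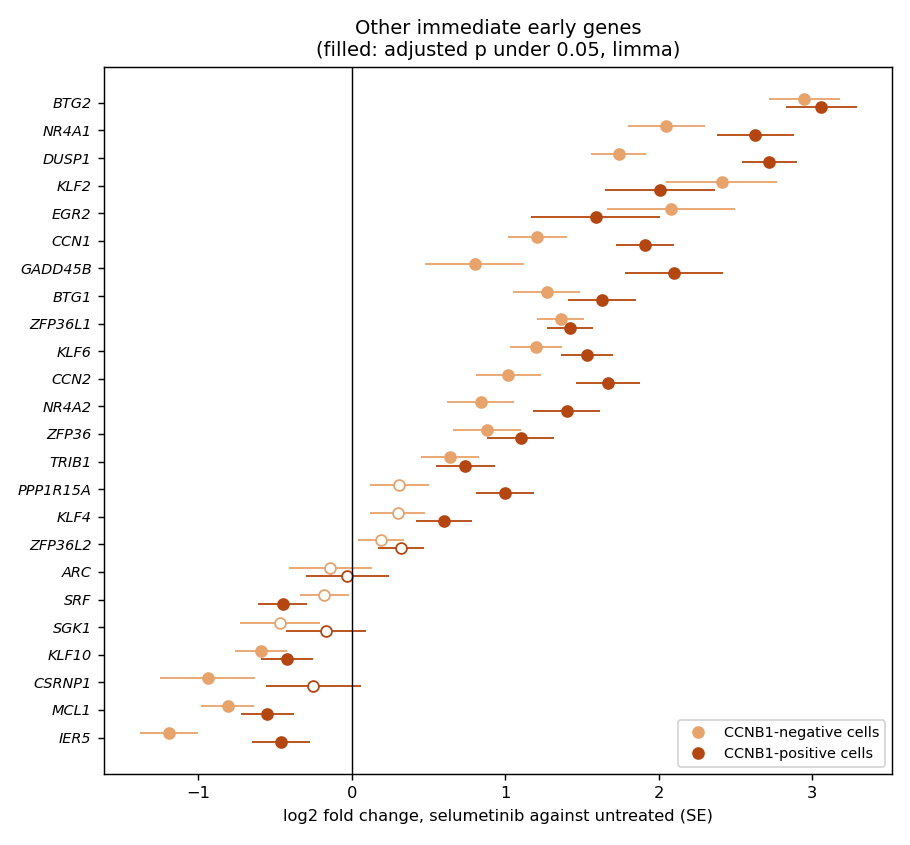
Log2 fold change of treated against untreated cells (x axis, bars are SE) for the 24 further immediate early genes that passed the filter (y axis), in CCNB1-negative (light) and CCNB1-positive (dark) cells, filled where the adjusted p was under 0.05. BTG2 leads with 2.95 and 3.06, and 14 and 16 of the 24 were called higher.

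Of 13 other leucine zipper genes that can pair with AP-1 proteins, 9 passed the filter, with 5 higher and 2 lower in the CCNB1-negative and 5 higher and 1 lower in the CCNB1-positive fraction. ATF3, a stress-inducible partner of JUN, rose most (2.0 and 3.42 on the log2 scale), and CREB5 was next in CCNB1-positive cells (1.84). MAFK, a small MAF protein, fell in both (−1.21 and −1.03) and MAFG in CCNB1-negative cells (−0.71). BATF, BATF2, BATF3 and MAF did not pass the filter.

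All 20 genes that act on AP-1 or EGR1 passed the filter, with 10 higher and 6 lower in the CCNB1-negative and 10 higher and 5 lower in the CCNB1-positive fraction. The parts of the list that were lower are below the shares of all genes, 35.8% and 27.3%. MAPK10, the JNK3 kinase, rose from low levels (4.43 and 4.02 on the log2 scale). The SRF coactivator MRTFA rose by 2.16 in CCNB1-negative cells and RPS6KA5, the kinase MSK1, by 1.70 in CCNB1-positive cells. The largest falls were those of RPS6KA4, the kinase MSK2 (−2.01 and −1.70), and ELK1 (−1.43 and −1.06).

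Of 20 known AP-1 targets 13 passed the filter. In CCNB1-negative cells 0 were higher and 9 lower by limma, against 38.2% and 35.8% of all genes, with 1 higher at an unadjusted p under 0.05 and 3 by limma-voom. In the CCNB1-positive fraction 3 were higher, 6 lower and 4 not called, against 38.0% and 27.3%. The medians were −0.83 and −0.34. HMGA1, an architectural chromatin protein, fell by 2.44 and 1.75 on the log2 scale. PLAUR, the urokinase receptor, fell by 1.78 in CCNB1-negative cells and TIMP1, a protease inhibitor, by 1.29 in CCNB1-positive cells. The 3 that rose in CCNB1-positive cells included the EGFR ligand AREG (0.84). In CCNB1-negative cells AREG stood at 0.27 (adjusted p = 0.11) and passed with quantile scaling (0.68, adjusted p = 9.9e-04) and limma-voom (0.41, adjusted p = 0.021). Of the matrix metalloproteinases on the list only MMP7, matrilysin, passed the filter (−1.59, adjusted p = 3.1e-05, in the CCNB1-negative and −0.34, adjusted p = 0.21, in the CCNB1-positive fraction). MMP9 had 0 reads in all 8 libraries.

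Immediate early genes can also respond to handling, so 9 genes of heat and dissociation stress were read beside them. In CCNB1-negative cells 1 was higher and 6 lower after selumetinib, and in CCNB1-positive cells 3 were higher and 6 lower. Their summed level was 4070 to 6700 RPM in untreated and 804 to 2210 RPM in treated libraries. HSPA8 fell by 3.62 and 2.29 on the log2 scale and HSPH1 by 2.99 and 2.05, while DDIT3, a stress-induced zipper factor, rose by 1.17 and 1.71 and HMOX1 by 1.08 in CCNB1-positive cells (0.45 without treated CCNB1-positive replicate 1, adjusted p = 0.33, and 1.02 without untreated CCNB1-positive replicate 2, adjusted p = 0.07). Any part of handling, or of the higher mitochondrial and MALAT1 shares, in the changes of the 10 genes was not tested. Scaled without mitochondrial genes and MALAT1, a choice made after seeing the data, 8 of the 10 were higher and 2 lower in each fraction. Over all genes tested that scaling called 6081 higher and 4354 lower in CCNB1-negative cells, and 6110 and 3101 in CCNB1-positive cells. The median of the 10 stood 0.41 and 0.86 above that of all genes, the same as on the deposited scale.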

How the data were processed

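Poly(A) mRNA-seq of 8 HT29 libraries was analysed. Per the submitters' processing notes, adapters were removed by Trim Galore 0.5.0 and alignment to GRCh38 used HISAT2 2.1.0. The values the authors deposited are log2 values from SeqMonk, corrected for the total read count. The annotation release and strand handling are not given in the sources used here, and the labels name RPMI-1640 where the methods give another medium. All value columns were used. The values resolved into whole reads (tolerance 0.01 read) for 100% of non-zero genes, zeros standing at 0.9 reads, and these reads set depth and RPM. Reads without molecular identifiers bound counting error only. Replicates differed beyond sampling noise (chi-square per gene 17.3 to 33.5).

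Genes at a mean of 1 RPM or more were tested with limma 3.58.1 (mean-variance trend, R 4.3.3) on the deposited values, 1 coefficient per group, since the unit was log2 and not counts. Adjusted p-values are Benjamini-Hochberg over all 14219 genes, threshold 0.05, two-sided. The 10 genes and all lists were chosen with earlier results of these data known. Named genes are the 10, CCNB1, DUSP6, SPRY4, ETV4 and ETV5, the 2 largest called rises and falls per list and fraction, and the 2 nearest genes of each member; a few listed genes are not reported here. SPRED2, HSP90AA1, EGR3, EGR4, NR4A3, MMP7, MMP9, the BATF genes, MAF and marker genes were named after their values were seen. Level per kilobase used merged GENCODE 44 exons. Promoters came from RefSeq (GRCh38) and matched the genome. Alternatives were median-ratio and quantile scaling, 2 filters, log2(RPM + 1), limma-voom, replicate blocks, only the groups compared, a threshold of 0.01, each library left out and 2 choices made after seeing the data, scaling without mitochondrial genes and MALAT1 and a crossed block. The fit was tested on simulated data. Other steps ran in Python 3.11.15 (pandas 2.3.3, matplotlib 3.10.9).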

Additional observations from a re-analysis of the deposited data

Results flagged for a closer look

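The difference between the 2 selumetinib responses, CCNB1-positive minus CCNB1-negative on the log2 scale, passed the interaction test in limma for 5 of the listed genes named above, none of them among the 10. Of all genes tested 5.33% passed. The difference was 1.42 for ATF3 (adjusted p = 0.025), 2.99 for CCNB1 (adjusted p = 1.8e-05), 0.98 for DUSP1 (adjusted p = 0.035), 1.33 for HSPA8 (adjusted p = 0.027) and 1.25 for MMP7 (adjusted p = 0.045). HSP90AA1, from the same stress list as HSPA8, also passed (1.21, adjusted p = 0.043), and its alternatives are not given. ATF3 and DUSP1 rose in both fractions, HSPA8 fell in both, MMP7 fell in the CCNB1-negative fraction and did not pass in the other, and CCNB1 is the sorting marker. The call for CCNB1 held in every alternative run. That for ATF3 was lost without untreated CCNB1-negative replicate 1 (1.27), untreated CCNB1-positive replicate 2 (1.15), treated CCNB1-negative replicate 2 (1.22) or treated CCNB1-positive replicate 1 (1.12), with adjusted p between 0.064 and 0.14, and also without the filter (adjusted p = 0.084) and with quantile scaling (0.92, adjusted p = 0.091). That for DUSP1 was lost without any library but treated CCNB1-negative replicate 1 or treated CCNB1-positive replicate 2 (0.74 to 1.03, adjusted p between 0.056 and 0.17), without the filter (adjusted p = 0.11), with quantile scaling (0.80, adjusted p = 0.09) and with scaling without mitochondrial genes and MALAT1 (0.95, adjusted p = 0.054). That for HSPA8 was lost without untreated CCNB1-negative replicate 2, untreated CCNB1-positive replicate 1, treated CCNB1-negative replicate 2 or either treated CCNB1-positive replicate (1.07 to 1.36, adjusted p between 0.072 and 0.14) and without the filter (adjusted p = 0.16). That for MMP7 was lost without untreated CCNB1-negative replicate 2, untreated CCNB1-positive replicate 1, treated CCNB1-negative replicate 2 or treated CCNB1-positive replicate 1 (0.89 to 1.09, adjusted p between 0.14 and 0.21), without the filter (adjusted p = 0.14), with quantile (1.21) and median-ratio scaling (1.16, adjusted p = 0.051 each), with scaling without mitochondrial genes and MALAT1 (1.22, adjusted p = 0.06) and with the replicate block (adjusted p = 0.054). At an adjusted p under 0.01 only the call for CCNB1 remained.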

How the results depend on the processing

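Several counts of the 10 genes moved with the processing. In CCNB1-negative cells 6 were higher after selumetinib, 3 without a filter or at an adjusted p under 0.01, 2 with median-ratio scaling, 5 with only the groups compared, 7 with limma-voom or log2(RPM + 1), 8 with quantile scaling or with scaling without mitochondrial genes and MALAT1, and 2 to 7 when 1 library was left out. In CCNB1-positive cells 8 were higher, 7 without a filter, 6 with median-ratio scaling or at 0.01, and 6 to 8 with 1 library out. The 2 falls in each fraction passed throughout. Between untreated fractions 1 was lower, 0 without a filter, with quantile scaling, with scaling without mitochondrial genes and MALAT1 or at 0.01, 2 with limma-voom, and 0 to 3 with 1 library out. Between treated fractions 0 were higher and 0 to 2 with 1 library out, and for the interaction 0 were higher and 0 to 3 with 1 library out. Replicate numbers were not established as pairing the samples: same-number deviations correlated at 0.715 and 0.561 between fractions of one treatment and at −0.138 to 0.037 across treatments. With the replicate block, 3 genes were lower between untreated fractions, 1 lower between treated fractions and 1 interaction passed; with a replicate block by treatment and number these were 5 lower and 1 higher, 1 lower and 2 higher, and 5. The interaction that passed with the first block was that of JUND (adjusted p = 0.035), and those with the second were JUND (adjusted p = 6.2e-04), JUN (0.0047), FOSB (0.0053), FOSL2 (0.015) and FOS (0.019). The crossed block, chosen after seeing the data, gave 2 lower between untreated fractions. The block changed no other count of the 10.

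Some directions turned. JUNB in CCNB1-negative cells was −0.07 and IER2 between treated fractions 0.02 with median-ratio scaling, and IER3 between treated fractions was −0.04 with quantile scaling. HMOX1 in CCNB1-negative cells was −0.01 and −0.02 with these scalings and −0.38 to 0.86 with 1 library out, and in CCNB1-positive cells CSRNP1 was −0.79 to 0.28 and MMP7 −0.70 to 0.02 with 1 library out. Between treated fractions, leaving out 1 library gave −0.40 to 0.20 for EGR1, −0.37 to 0.09 for FOS, −0.04 to 0.69 for FOSL2, −0.22 to 0.20 for IER2, −0.19 to 0.32 for IER3, −0.35 to 0.19 for JUN and −0.24 to 0.06 for JUNB. The cause was not tested. Over all genes, at 10 RPM 3285 and 3107 were higher in the drug comparisons (5438 and 5400), genes tested being fewer. Between untreated fractions 214 were lower, and 81 to 1248 over the alternatives. Between treated fractions 1119 were lower (166 to 2826) and 1958 higher (990 to 3845). For the interaction 709 were higher (423 to 2739) and 49 lower (3 to 1111). The highest count of each of these ranges came with the block by treatment and number. With 1 library out, the lone library of its group is assumed to vary like the other groups. The 10 genes had 292 or more reads in each library, and having 2 libraries per group limits the precision.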
